A study of Mus musculus with 16 samples.

Results

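The 7 SOX transcription factor genes described here, *Sox4*, *Sox5*, *Sox6*, *Sox8*, *Sox9*, *Sox11* and *Sox12*, were measured in 16 RNA-seq libraries of C2C12, a myoblast line from mouse muscle whose cells fuse to form myotubes in low serum. They are 7 of the 49585 genes counted and 7 of the 19 Sox family genes counted. The set was chosen by gene family together with the values of *Sox11* and *Sox12* in the AMPK-KO and WT libraries at d0, both of which were lower in AMPK-KO. That contrast is therefore described for all 7 genes and carries no test. On the mouse genome GRCm38, *Sox11* lies at chr12:27334264-27342574, *Sox12* at chr2:152393611-152398063, *Sox4* at chr13:28948919-28953713, *Sox5* at chr6:143828425-144781977, *Sox6* at chr7:115470872-116038796 and *Sox8* at chr17:25565892-25570686, all on the minus strand, and *Sox9* at chr11:112782224-112787760 on the plus strand. All are protein-coding genes, and the counts are over their exons.

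One experiment compared WT with AMPK-KO cells, in which *Prkaa1* and *Prkaa2*, the genes of both catalytic AMPK subunits, were disrupted by CRISPR-Cas9. Both genotypes were sampled as myoblasts (d0) and after 8 days in low-serum differentiation medium (d8), with 2 libraries per group. The study's legends describe sequencing tracks of a pair of independent AMPK-KO lines, and the labels do not say which library came from which line. The other experiment used AMPK-null myoblasts at d0 whose endogenous *Tet2* carried an N-terminal FLAG-BirA tag and a GFP coding sequence, either with the wild-type sequence (TET2-WT) or with serine 97 changed to glutamate (TET2-S97E), a change that mimics phosphorylation by AMPK. Each of these genotypes had 2 clones with 2 libraries per clone, so AMPK was absent from all 8 of these libraries, and a difference between the genotypes is a difference between pairs of clones. Nothing in the labels says that replicates were separate cultures, so p-values measure the spread between libraries, which for WT and within a clone may be technical. Total counts ran from 17883417 to 24663079 per library in the first experiment and from 19801909 to 37790358 in the second.

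SOX proteins bind the minor groove of DNA through a high-mobility-group box and usually act with a partner factor. SOX4, SOX11 and SOX12 form the SoxC group, known for roles in progenitors and in neurons. SOX5 and SOX6 belong with SOX13 to the SoxD group, which lacks an activation domain of its own. SOX5 and SOX6 assist SOX9 in cartilage, and SOX6 represses slow-fibre genes in fetal muscle. SOX8 and SOX9 belong to the SoxE group. SOX9 directs chondrocyte differentiation, and SOX8 has been described in muscle satellite cells as an inhibitor of myogenesis.

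Upstream sequences are shown for the 3 members on which the comparisons below turn most, *Sox11*, *Sox12* and *Sox8*. Each run holds the 250 bases before the RefSeq transcription start on GRCm38.p6, read 5′ to 3′ on the minus strand, with every CpG dinucleotide, the site at which DNA is methylated and TET2 oxidizes the methyl group, in capitals. The windows lie at chr12:27342719-27342968 for *Sox11*, chr2:152398047-152398296 for *Sox12* and chr17:25570687-25570936 for *Sox8*.
Sox11: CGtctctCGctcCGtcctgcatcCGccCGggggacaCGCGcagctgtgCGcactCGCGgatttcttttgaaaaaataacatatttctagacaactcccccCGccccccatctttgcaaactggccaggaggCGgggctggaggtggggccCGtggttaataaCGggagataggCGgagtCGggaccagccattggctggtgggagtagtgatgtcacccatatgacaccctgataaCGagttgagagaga
Sox12: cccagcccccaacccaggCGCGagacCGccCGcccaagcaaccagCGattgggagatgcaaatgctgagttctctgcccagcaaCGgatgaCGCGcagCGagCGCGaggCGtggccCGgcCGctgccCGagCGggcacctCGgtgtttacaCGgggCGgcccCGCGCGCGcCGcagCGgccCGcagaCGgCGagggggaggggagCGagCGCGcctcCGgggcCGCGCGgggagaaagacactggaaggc
Sox8: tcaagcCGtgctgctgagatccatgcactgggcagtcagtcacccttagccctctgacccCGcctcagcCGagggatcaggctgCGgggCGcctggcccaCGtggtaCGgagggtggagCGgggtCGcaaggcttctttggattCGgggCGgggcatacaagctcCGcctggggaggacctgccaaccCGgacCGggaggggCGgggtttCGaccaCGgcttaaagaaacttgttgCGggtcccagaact
The *Sox12* window held 35 CpG sites, and 2.97% of the 32841 RefSeq promoter windows of this length held as many. The *Sox8* window held 18 (21.7% held as many) and the *Sox11* window 17 (23.5%), against a median of 6 over all windows. RefSeq windows were matched for 6 of the 7 members. That of *Sox4* held 11 CpG sites, and the 6 windows of *Sox6*, which has several starts, 1 to 10. The *Sox5* window, which held 3, precedes an internal RefSeq start and lies 834871 bases inside the gene coordinates given above. The E-box CAGCTG, which reads the same on both strands and is a sequence bound by MYOD1, occurred once in the *Sox11* window, once in the *Sox4* window, in 1 of the 6 *Sox6* windows and in 4270 of all 32841 windows. The SOX-type sequences ACAAAG and AACAAT, searched on both strands, were absent from the *Sox11*, *Sox12*, *Sox8*, *Sox4* and *Sox5* windows and occurred in 16.5% and 9.43% of all windows. ACAAAG was found in 5 of the 6 *Sox6* windows. The counts used here hold no methylation, so no value below bears on the state of these sites.

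The genes targeted in the cells were read first. *Prkaa1* stood at 158 CPM (read counts scaled to library size and composition within each experiment) in both WT d0 libraries and at 79.6 and 78.0 in AMPK-KO d0. The d8 libraries of WT had 126 and 125 CPM, above the 83.3 and 82.4 CPM of AMPK-KO. *Prkaa2* had 35 and 33 counts in WT d0, 4 and 9 in AMPK-KO d0, 113 and 216 in WT d8 and 31 and 17 in AMPK-KO d8. Small insertions and deletions of the kind made here leave a transcript that is still counted, so these values check the labels only weakly. *Tet2* ran from 22.5 to 58.3 CPM in TET2-WT and from 7.87 to 22.1 CPM in TET2-S97E, with no overlap, and gene counts do not read the changed codon.

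The myoblast identity of the cells was checked on 6 markers, *Myod1*, *Myf5*, *Des*, *Cdh15*, *Itga7* and *Pax7*. At least 5 of the 6 were above 3 counts in every library, with *Des* (desmin) the most abundant in all 16. The exception was *Pax7*, the satellite-cell factor, which had 167 and 169 counts in WT d0 but 0 and 1 in AMPK-KO d0, 0 and 2 in AMPK-KO d8 and at most 6 in TET2-WT. The 6 myotube markers did not follow the d0 label alone. Their summed level, in TPM (a share of transcripts that allows for gene length), was 271 and 172 in WT d0 and 37.0 and 26.7 in AMPK-KO d0. It was 9486 and 12772 in WT d8, and 3381 and 18905 in AMPK-KO d8. In the undifferentiated TET2-WT libraries it was 19.1, 22.6, 56.7 and 422, and in the undifferentiated TET2-S97E libraries 8684, 2611, 2949 and 610, led by *Acta1*, skeletal actin. The sum was thus higher in each TET2-S97E library than in every other d0 library. The second library of TET2-WT clone 2 came next and stood above the other TET2-WT libraries. It had less *Myog*, at 13.9 CPM, than the WT d0 libraries, at 29.5 and 19.6 CPM.

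Markers of cells in which SOX genes are best known were scarce. *Col2a1* and *Acan*, the defining cartilage genes, never passed 4 counts, and the 7 chondrocyte markers summed to at most 4.85 TPM in any library. *Sox10*, the neural crest and Schwann cell factor, never passed 1 count, and the most abundant gene of that list was *Erbb3*, a receptor that the muscle lineage also expresses, in 15 of 16 libraries. *Rbfox3*, a marker of mature neurons, never passed 1 count, yet the sum of the 6 neuron markers was 328 and 519 TPM in WT d0 and 21.1 and 17.9 TPM in AMPK-KO d0. It was 205 and 136 TPM in WT d8 and 2.24 and 4.40 TPM in AMPK-KO d8. *Stmn2* and *Tubb3*, both also on the list of SOX4 and SOX11 targets below, were the only 2 of these markers above 8 counts in any library. Endothelial markers summed to at most 1.79 TPM. In bulk RNA, fewer cells of a kind and less RNA per cell cannot be told apart.

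*Sox9* and *Sox4* were the abundant members on the per-length TPM scale. In WT d0, *Sox9* reached 112 ± 12.5 TPM and *Sox4* 88.3 ± 29.8 TPM (SD, n = 2), and their libraries overlapped. *Sox11* followed at 37.1 ± 1.65 TPM, below both in every library. *Sox8* at 3.74 ± 2.22 and *Sox12* at 2.81 ± 0.559 TPM could not be ordered beyond their spread. *Sox5* at 0.341 ± 0.0384 TPM and *Sox6* at 0.0997 ± 0.0738 TPM came last, and each *Sox5* value was above each *Sox6* value. The order was not fixed. In WT d8, *Sox9*, *Sox4* and *Sox11* stood at 113, 95.7 and 87.8 TPM and overlapped in the neighbouring pairs, whereas in AMPK-KO d8 *Sox4* at 117 TPM led *Sox9* at 69.2 TPM in every library and *Sox11* stood at 2.59 TPM. *Sox4* also led *Sox9* in TET2-WT clone 2 and in both TET2-S97E clones, while the pair overlapped in TET2-WT clone 1. *Sox12* was at 0 counts in 11 of the 16 libraries, *Sox6* in 6 and *Sox5* in 3. The other 4 members were counted in all 16.

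**Figure D1:**
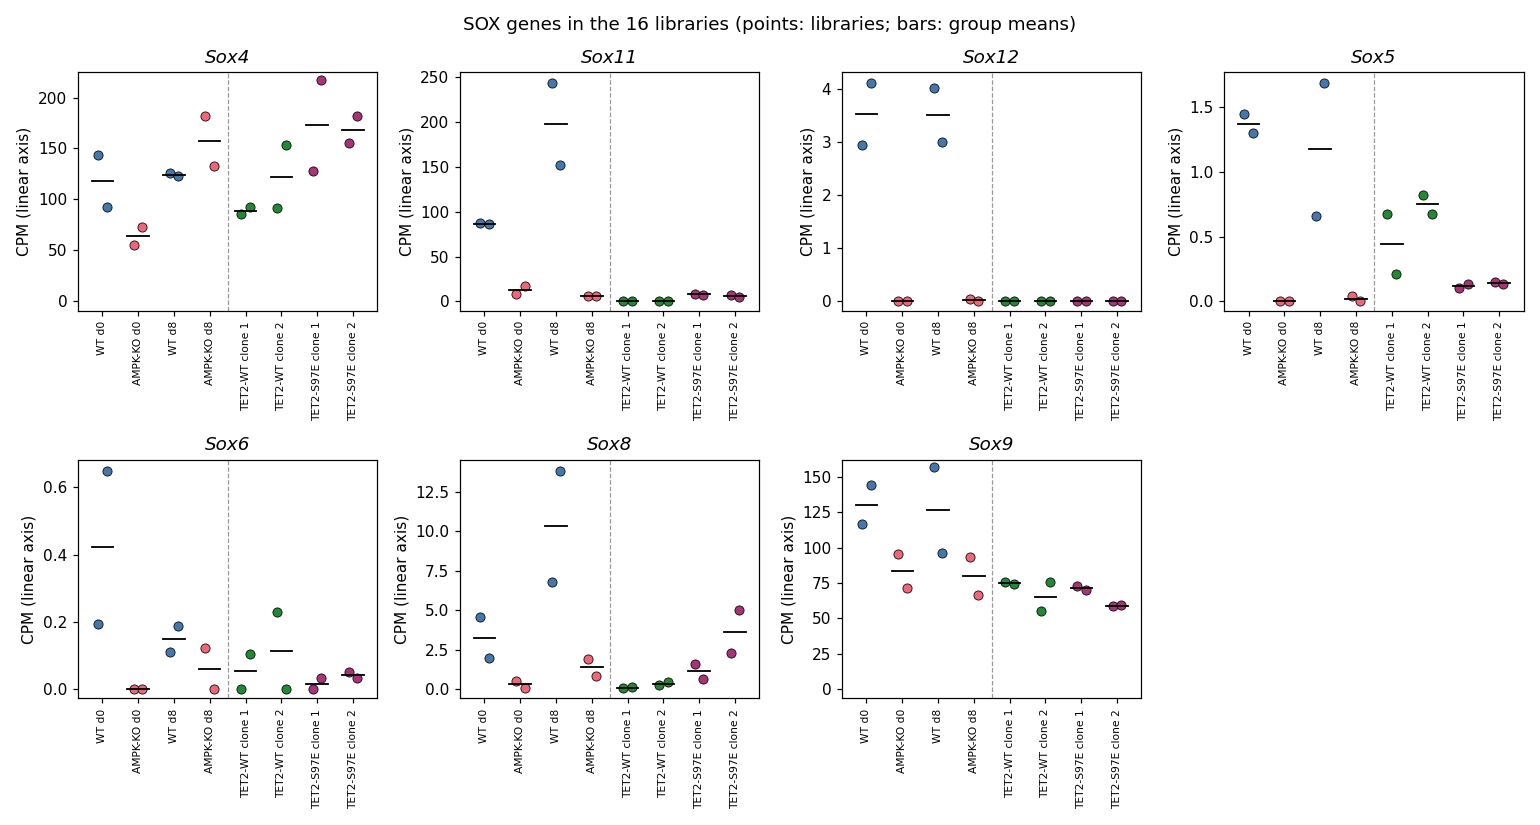
CPM (linear axes, one scale per gene) of each SOX gene in each of the 16 libraries, with points for libraries and black bars for the mean of a group or clone. Blue is WT, red AMPK-KO, green TET2-WT and purple TET2-S97E, and the dashed line separates the experiments, which were normalized separately. *Sox11* and *Sox12* were high in the 4 WT libraries alone, with *Sox11* at 86.2 CPM or more there and at most 17.1 CPM elsewhere, while *Sox9* stayed between 54.9 and 157 CPM.

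At d0, the contrast that chose the set, all 7 genes were lower in both AMPK-KO libraries than in both WT libraries. Among the 14329 genes past the filter on low counts, 25.7% were lower without overlap in the same way, and 3.52% were called in either direction, meaning an adjusted p under 0.05 over all genes tested. Because the contrast chose the set, nothing is read from the count of 7. *Sox11* stood at 87.0 and 86.2 CPM in WT and at 8.11 and 17.1 CPM in AMPK-KO. The fitted log2 fold change was -2.78 ± 0.375 (SE). *Sox12* had 61 and 76 counts in WT and none in either AMPK-KO library, which puts WT at least 23.8-fold higher when each empty library is set to 3 counts.

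*Sox5* and *Sox6* also had no counts in the AMPK-KO d0 libraries. *Sox5* had 30 and 24 counts in WT, at least 9.24-fold above that floor. *Sox6* had 4 and 12 counts, at least 2.84-fold above it, and did not pass the count filter. *Sox8* stood at 4.53 and 1.95 CPM in WT and at 0.523 and 0.0934 CPM in AMPK-KO, a log2 fold change of -3.40 ± 0.870. This value was -5.04 without the first AMPK-KO d0 library and -2.65 without the second. The abundant members differed least. *Sox4* stood at 144 and 93.0 CPM in WT and at 55.2 and 73.3 CPM in AMPK-KO (-0.88 ± 0.264), and *Sox9* at 116 and 144 CPM against 95.7 and 71.5 CPM (-0.64 ± 0.293).

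At d8 the same genotypes were compared in libraries outside the d0 contrast that chose the set. They are the same cell lines, and the members and gene lists were chosen with earlier results of these data known. *Sox11*, *Sox12* and *Sox5* fell in AMPK-KO, and none of the 6 members tested rose. Of all 14329 genes tested, 5.35% were called in either direction and 3.98% were called lower. *Sox12* and *Sox5* passed the filter on low counts only through the WT libraries, where they were high, so nothing is read from the count of 3 against these shares. With at least 10 counts required in every library, 3 members could be tested and *Sox11* alone was called. Tests were edgeR's quasi-likelihood tests with Benjamini-Hochberg adjustment over all genes, in 1 fit of all 8 libraries.

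*Sox11* showed the widest gap of the well-counted members. It stood at 244 and 152 CPM in WT d8 and at 5.91 and 6.17 CPM in AMPK-KO d8, with 145 and 127 counts behind the latter values. The log2 fold change was -5.03 ± 0.417 (SE, edgeR adjusted p = 0.0040), and the gap between the groups far exceeded the difference between replicates. It stayed past the threshold with each library left out, with adjusted p between 0.0109 and 0.0208.

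*Sox12* had 73 and 64 counts in WT d8, and 1 and 0 in AMPK-KO d8. With 1 read in the lower group, the ratio of 157 has a 95% exact interval of 27.6 to 6227 that covers counting error only. The edgeR adjusted p was 0.0111, and the call was lost without the first or the second WT d8 library (0.0641 and 0.0567).

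*Sox5* had 12 and 36 counts in WT d8, against 1 and 0 in AMPK-KO d8. Its ratio of 54.8 has an interval of 9.38 to 2211, and its edgeR adjusted p was 0.0401. This call was lost when only the 4 d8 libraries were fitted (adjusted p = 0.0623) and with any 1 of them left out (0.100 to 0.207).

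*Sox8* stood at 6.77 and 13.8 CPM in WT d8 and at 1.92 and 0.825 CPM in AMPK-KO d8. The groups did not overlap, but its log2 fold change of -2.90 ± 0.773 missed the threshold (edgeR adjusted p = 0.0819, while DESeq2 gave 0.00122 and edgeR without the count filter 2.38e-07). The log2 fold change ran from -3.61 to -2.28 with 1 library left out. Reads of *Sox8* and of the antisense gene *2810468N07Rik*, which had at most 26 counts in any library, cannot be told apart where they overlap unless strand was used in counting, which is not stated. *Sox9* stood at 157 and 96.0 CPM in WT d8 and at 93.4 and 66.8 CPM in AMPK-KO d8, without overlap, a log2 fold change of -0.66 ± 0.293 (edgeR adjusted p = 0.237, and 0.0379 without the count filter). *Sox6* had 2 and 4 counts against 3 and 0 and did not pass the count filter (-1.16 ± 1.54 without the filter, edgeR adjusted p = 0.828).

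*Sox4* was the member with the opposite sign at d8. It stood at 126 and 123 CPM in WT d8 and at 182 and 133 CPM in AMPK-KO d8, a log2 fold change of 0.34 ± 0.262 (edgeR adjusted p = 0.483). The direction at d0 was the opposite, and that difference was not tested. In all, 5 members were lower in AMPK-KO d8 without overlap, and *Sox4* was higher without overlap. Of the genes tested, 27.9% were lower without overlap. *Sox12* and *Sox5* are among the 5 and passed the filter only through the WT libraries. Nothing is therefore read from the count of 5 against this share.

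**Figure D2:**
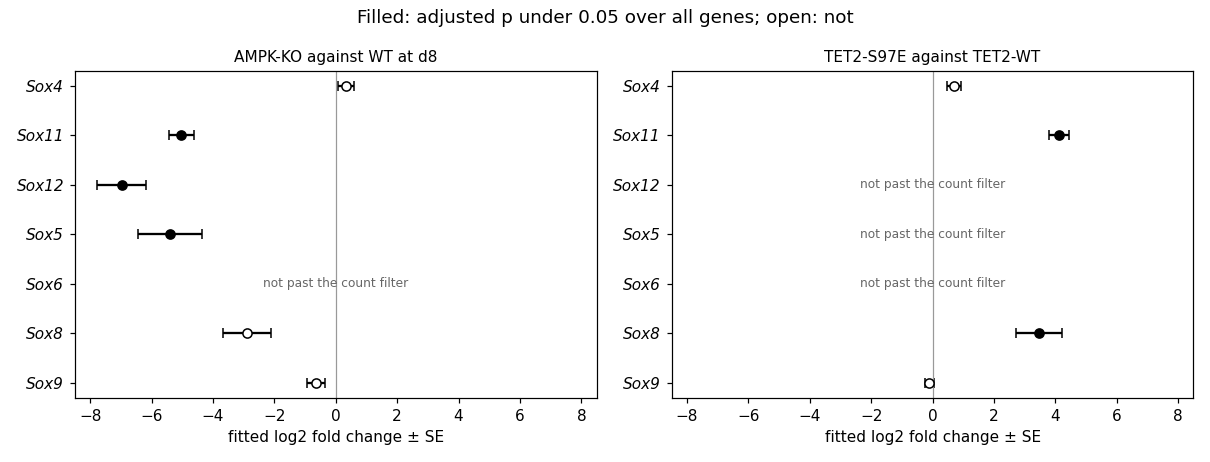
Fitted log2 fold change (x axis) with its SE for each SOX gene in the d8 AMPK-KO against WT comparison (left) and the TET2-S97E against TET2-WT comparison (right). Filled points passed an adjusted p of 0.05 over all genes. *Sox11* lay at -5.03 on the left and at 4.13 on the right, and the fitted values of *Sox12* and *Sox5* on the left rest on 1 count in the lower group.

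Differentiation itself was compared within each genotype. In WT, none of the 4 members tested passed (*Sox4*, *Sox5*, *Sox8*, *Sox9*), with 12.4% of all genes called, and DESeq2 called none of them either. None of the 4 had an unadjusted p under 0.05 in edgeR, and the lowest was that of *Sox8*, 0.0563. *Sox9* went from 116 and 144 CPM at d0 to 157 and 96.0 CPM at d8, and *Sox5* from 30 and 24 counts to 12 and 36. *Sox8* was higher at d8 without overlap, with a log2 fold change of 1.66 ± 0.732 (edgeR adjusted p = 0.174, and 0.0049 without the count filter), or from 1.03 to 2.38 with 1 library left out. *Sox11*, whose d0 libraries entered the choice of the set, went from 87.0 and 86.2 CPM to 244 and 152 CPM in WT, a log2 fold change of 1.19 ± 0.352 given without a test. *Sox12* overlapped between the days in WT, at 2.94 and 4.12 CPM at d0 and 4.02 and 3.001 CPM at d8.

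In AMPK-KO, *Sox4* rose with differentiation, from 55.2 and 73.3 CPM to 182 and 133 CPM. Its log2 fold change was 1.30 ± 0.266 (edgeR adjusted p = 0.0321). It was 1 of the 4 members tested, against 9.76% of all genes called and 4.81% called higher, and the call was lost with any 1 of the 4 libraries left out (0.0514 to 0.201). *Sox8* had 10 and 2 counts at d0 and 47 and 17 at d8 (2.17 ± 0.870, edgeR adjusted p = 0.156, DESeq2 adjusted p = 0.0489), and its log2 fold change ran from 1.40 to 3.78 with 1 library left out, the latter without the first d0 library. *Sox9* differed by -0.06 ± 0.292 (adjusted p = 0.915). *Sox11* in AMPK-KO went from 8.11 and 17.1 CPM to 5.91 and 6.17 CPM, a log2 fold change of -1.06 ± 0.370 given without a test. With 1 library left out it ran from -1.52 to -0.41 in AMPK-KO, the latter without the second d0 library, and from 0.78 to 1.47 in WT. The direction was thus opposite in WT and in AMPK-KO, and that difference was not tested.

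The TET2 knock-in asked whether a phosphorylation-mimicking TET2 alters expression in cells without AMPK. *Sox11* and *Sox8* rose in TET2-S97E, and the other 2 members tested were not called. Of all 13433 genes tested, 6.98% were called in either direction and 3.71% were called higher. Both genes were higher without overlap, as were 7.29% of the genes tested. Both passed the filter on low counts through the TET2-S97E libraries, where they were high, so nothing is read from the count of 2 against these shares. With at least 10 counts required in every library neither could be tested, and neither of the 2 members left was called.

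*Sox11* stood at 0.316, 0.448, 0.275 and 0.498 CPM in the 4 TET2-WT libraries, or 6 to 17 counts each. In TET2-S97E it stood at 7.86 and 7.54 CPM in clone 1 and at 7.51 and 4.63 CPM in clone 2. The log2 fold change was 4.13 ± 0.319 (edgeR adjusted p = 0.000965), and it held with any 1 library left out (0.00181 to 0.0113). With the clone as a random effect in limma-voom the adjusted p was 0.0129, whereas with counts summed per clone, 2 against 2, it was 0.257 and no gene passed. Clones of 1 genotype did not differ detectably, with log2 fold changes of -0.34 ± 0.361 between the TET2-S97E clones and 0.00 ± 0.490 between the TET2-WT clones (edgeR adjusted p = 0.705 and 0.999).

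Set beside the first experiment, which was normalized separately and allows no test, the *Sox11* values of TET2-S97E, 4.63 to 7.86 CPM, spanned those of AMPK-KO at d8 (5.91 and 6.17 CPM) and lay below those of AMPK-KO at d0 (8.11 and 17.1 CPM). WT d0 stood at 87.0 and 86.2 CPM. TET2-WT at 0.275 to 0.498 CPM was below every AMPK-KO library.

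*Sox8* had 1, 5, 5 and 12 counts in TET2-WT and 32, 19, 45 and 153 in TET2-S97E, where clone 2 at 2.27 and 4.99 CPM was above clone 1 at 1.61 and 0.618 CPM. The log2 fold change was 3.48 ± 0.753 (edgeR adjusted p = 0.0266). This call was lost without either TET2-WT clone 1 library, without the first library of TET2-WT clone 2 or without the first library of TET2-S97E clone 1 (0.0504 to 0.0845). It was also lost with the clone as a random effect (0.155) or with counts summed per clone (0.347).

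*Sox12* had no count in any of the 8 TET2 libraries, where 3 counts stand for 0.0790 to 0.151 CPM, so a difference between TET2-S97E and TET2-WT was not detectable at this depth. The 5 libraries with *Sox12* counts were the 4 of WT and 1 of AMPK-KO d8. *Sox5* went the other way from *Sox11*, with 15, 8, 18 and 19 counts in TET2-WT and 2, 4, 3 and 4 in TET2-S97E, without overlap. It did not pass the count filter. Fitted without the filter it gave -2.18 ± 0.626 (edgeR adjusted p = 0.0670), and DESeq2 called it lower. *Sox6* had at most 5 counts in any of these libraries.

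*Sox4* stood at 85.6, 92.5, 91.6 and 153 CPM in TET2-WT and at 128, 217, 155 and 181 CPM in TET2-S97E, overlapping through the second library of TET2-WT clone 2. The log2 fold change was 0.69 ± 0.226 (edgeR adjusted p = 0.102). Without that library it was 0.92 with an edgeR adjusted p of 0.0218, and *Sox4* was not called with any other single library left out. *Sox9* overlapped between the genotypes, from 54.9 to 75.9 CPM in TET2-WT and from 58.4 to 73.2 CPM in TET2-S97E (-0.11 ± 0.142, edgeR adjusted p = 0.708). Between the clones of 1 genotype edgeR called 0 of the 5 members tested, against 6.17% of 14459 genes between the TET2-S97E clones and 0.858% between the TET2-WT clones, and DESeq2 called none either. *Sox8* between the TET2-S97E clones alone had an unadjusted p under 0.05 (0.0230, a log2 fold change of 1.74 ± 0.637), and edgeR without the count filter called it (adjusted p = 0.0293).

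The rise of *Sox11* and *Sox8* in TET2-S97E ran beside the muscle differentiation genes. Of the 6 myotube markers, *Acta1*, *Ckm*, *Myh3* and *Myog* were called higher (edgeR adjusted p = 0.0487, 0.0321, 0.0398 and 0.0307) and *Tnnt3* and *Ttn* were not. The median log2 fold change of the 6 was 4.30, and 3.71% of all genes tested were called higher. *Myog*, myogenin, a factor that drives myoblast differentiation, stood at 0.407 to 13.9 CPM in TET2-WT and at 42.1 to 180 CPM in TET2-S97E. Of the 6 myoblast markers, *Pax7* and *Myod1* were higher (edgeR adjusted p = 0.0077 and 0.0496), and the other 4 were not called. *Pax7*, with at most 6 counts in any TET2-WT library, passed the filter through the TET2-S97E libraries, where it was high. Nothing is therefore read from this count of myoblast markers against the 3.71%. The calls of *Acta1*, *Ckm*, *Myh3*, *Myog* and *Myod1* were each lost without either TET2-WT clone 1 library, the first library of TET2-WT clone 2 or the first of TET2-S97E clone 1, with highest edgeR adjusted p of 0.135, 0.0961, 0.118, 0.0971 and 0.126. With the clone as a random effect in limma-voom *Myog* kept its call (0.0382) and the other 4 did not (adjusted p = 0.0579, 0.118, 0.114 and 0.140 for *Acta1*, *Ckm*, *Myh3* and *Myod1*), nor did *Pax7* (0.0698). With the replicate block the same 4 missed the threshold (edgeR adjusted p from 0.0649 to 0.0932). Leaving out the second library of TET2-S97E clone 1 also ended the calls of these 5 genes except that of *Ckm*, and leaving out the first of TET2-S97E clone 2 ended those of *Acta1* and *Ckm*. Within TET2-S97E, the second library of clone 2 had the lowest myotube sum, 610 TPM, the least *Sox11*, 4.63 CPM, and the most *Sox8*, 4.99 CPM, and the first library of clone 1 had the highest sum, 8684 TPM, and the most *Sox11*, 7.86 CPM. Within TET2-WT, the second library of clone 2 had the highest sum, 422 TPM, and the most of both, with 0.498 CPM of *Sox11* and 0.427 CPM of *Sox8*. The mitochondrial share of counts was 2.03 to 2.29% in TET2-S97E. In TET2-WT it was 2.14% in that same library and 1.00 to 1.38% in the others. The part of differentiation, or of what moved this share, in the *Sox11* and *Sox8* values was not tested. Between AMPK-KO and WT at d8, edgeR called 0 of the 6 myotube markers, against 5.35% of all genes tested. With 6 genes that is near the share, so nothing is read from it. The AMPK-KO d8 libraries stood far apart in the sum, at 3381 and 18905 TPM. *Myog* and *Ckm* had an unadjusted edgeR p under 0.05 (0.0252 and 0.0437) in opposite directions.

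Genes that SOX proteins are known to regulate were read from lists. Of 7 genes activated by SOX4 and SOX11 in other tissues, 6 passed the filter in the first experiment, and 3 fell in AMPK-KO at d8, with none higher and with 3.98% of all genes called lower. *Map2*, and on the lists that follow *Prox1*, *Col11a1* and at d8 *Pax7*, passed the filter only through the WT libraries, where they were high, so nothing is read from these counts of calls against that share. The same holds for the d8 medians of the lists that include these genes. *Map2*, which encodes a neuronal microtubule-binding protein, had 727 and 844 counts in WT d8 and 2 and 0 in AMPK-KO d8, a ratio of 898 with a counting interval of 248 to 7418 (edgeR adjusted p = 0.0040). *Tubb3*, a neuronal tubulin, went from 96.1 and 63.3 CPM to 1.02 and 1.51 CPM (-5.99 ± 0.436, adjusted p = 0.0033). *Stmn2*, a tubulin-binding regulator of neurite growth, went from 21.7 and 16.6 CPM to 0.367 and 2.48 CPM (-3.78 ± 0.770, adjusted p = 0.0388). The call of *Stmn2* was lost in the fit of the d8 libraries alone and in 3 of the 4 fits with 1 library left out. In those 4 fits its log2 fold change ran from -5.72 to -2.93. *Cald1*, which encodes an actin-binding protein and is the most abundant of the list, was not called (-0.09 ± 0.316, adjusted p = 0.895), nor were *Tead2* and *Sema3c*. The median log2 fold change of the 6 genes, *Map2* included, was -1.94, against 0.04 over all genes tested, and nothing is read from that difference.

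In TET2-S97E no gene of the same list was called higher. Of all genes tested 3.71% were, so with 5 genes past the filter nothing is read from that. *Tubb3* stood at 0.407 to 1.10 CPM in TET2-WT and at 0.403 to 4.24 CPM in TET2-S97E (adjusted p = 0.270), and *Map2* had at most 4 counts in any of the 8 libraries. *Stmn2* split by clone, with 6 and 6 counts in TET2-S97E clone 1 and 767 and 1075 in clone 2 (adjusted p = 0.699). *Sema3c*, a secreted guidance cue, was the single gene called, and it fell, from 72.0 to 280 CPM in TET2-WT to 6.96 to 37.6 CPM in TET2-S97E (-2.78 ± 0.602, adjusted p = 0.0268, and 0.0554 with the clone as a random effect in limma-voom). The median of the 5 genes past the filter was 0.48, against 0.01 over all genes tested.

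Of 8 slow-muscle genes that SOX6 represses in fetal muscle, 7 passed the filter in the first experiment. *Prox1*, a homeobox factor of slow fibres, fell at d8. WT d8 held 32 and 85 counts of it and AMPK-KO d8 none, so WT was at least 21.4-fold higher (edgeR adjusted p = 0.0166), a call lost in 3 of the 4 fits with 1 library left out. The other 6 were not called, and the median was -0.25. In the TET2 comparison 5 genes passed the filter and all 5 were called higher, as were 3.71% of all genes. *Myh7* and *Myh7b* had under 10 counts in 3 of the 4 TET2-WT libraries and passed through TET2-S97E, where they were high, so nothing is read from the count of 5. None of the 5 calls held with the clone as a random effect in limma-voom (adjusted p from 0.0650 to 0.114). *Myh7*, slow myosin heavy chain, stood at 0.0527 to 2.14 CPM in TET2-WT and at 19.5 to 148 CPM in TET2-S97E (6.60 ± 1.06, adjusted p = 0.0105). *Tnnc1*, *Tnnt1* and *Tnni1*, slow troponin genes, and *Myh7b* had log2 fold changes from 3.19 to 4.75 (adjusted p = 0.0160, 0.0272, 0.0397 and 0.0318), and the median was 4.75. These 4 calls were each lost without either TET2-WT clone 1 library or the first library of TET2-WT clone 2, and, except for *Tnnc1*, without the first library of TET2-S97E clone 1, with highest edgeR adjusted p of 0.0599, 0.0844, 0.114 and 0.0981, while that of *Myh7* held with any 1 library left out. *Tnni1* and *Myh7b* also lost theirs without the second library of TET2-S97E clone 1, and *Tnni1* without the first of clone 2. *Tnni1* alone of the 5 overlapped between the genotypes. These are also genes of differentiating muscle, and they moved with the myotube markers above. *Sox6* itself had at most 5 counts there.

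Of 14 cartilage matrix genes activated by SOX9 with SOX5 and SOX6, 5 passed the filter in the first experiment, with a median of -1.14. *Col11a1* fell at d8, from 37 and 52 counts in WT to none in AMPK-KO, so that WT was at least 16.7-fold higher (edgeR adjusted p = 0.0294), a call lost with any 1 of the 4 libraries left out. *Col11a2*, its partner chain, was not called (0.91 ± 0.617, adjusted p = 0.426). *Matn3*, a matrilin, had 12 and 19 counts in WT d8 and 31 and 59 in AMPK-KO d8 (adjusted p = 0.388). In the TET2 comparison 4 genes passed, with a median of 0.74. Of these, *Col10a1*, the collagen of hypertrophic cartilage, rose from 0.356 to 1.16 CPM in TET2-WT to 5.07 to 16.4 CPM in TET2-S97E (3.59 ± 0.492, adjusted p = 0.0071).

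Of 16 partner and co-factor genes listed, 12 passed the filter in the first experiment and *Pax7* alone was called at d8, lower in AMPK-KO (adjusted p = 0.0063), with a median of -0.38 and with 5.35% of all genes called. In the TET2 comparison 11 passed and *Pax7* alone was called, where 6.98% of all genes were called. It had 1, 6, 1 and 2 counts in TET2-WT and 42, 51, 50 and 323 in TET2-S97E (5.53 ± 0.798, or 4.52 to 6.13 with 1 library left out). *Pax7* passed the filter through the TET2-S97E libraries, where it was high, so nothing is read from this call against that share. The call was lost at an adjusted p of 0.0698 with the clone as a random effect in limma-voom. The most abundant of the list, *Zeb1*, *Tle3* and *Runx2*, were not called in either comparison (adjusted p from 0.116 to 0.609). The median there was 0.07.

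Of 11 WNT and Hedgehog pathway genes tied to SOX9, 10 passed the filter in the first experiment and *Lef1*, a nuclear mediator of WNT signalling, rose in AMPK-KO d8. It stood at 15.6 and 8.95 CPM in WT d8 and at 43.8 and 29.7 CPM in AMPK-KO d8 (1.58 ± 0.320, edgeR adjusted p = 0.0377), a call also lost in 3 of the 4 fits with 1 library left out, with only the d8 libraries (0.0877) and with at least 10 counts in every library (0.0560). In the TET2 comparison 9 passed and *Lef1* fell, from 22.0 to 33.5 CPM in TET2-WT to 12.1 to 16.9 CPM in TET2-S97E (-0.89 ± 0.182, adjusted p = 0.0221, and 0.0758 with the clone as a random effect in limma-voom). *Ctnnb1*, which encodes beta-catenin, *Tcf7* and *Tcf7l1* were not called in either. The medians were 0.01 and -0.05. Across all lists, 14 genes were called in TET2-S97E, 12 of them were not with the clone as a random effect (*Col10a1* and *Myog* were), and none with counts summed per clone. Of all genes tested 6.98% were called. *Pax7*, *Myh7* and *Myh7b* passed the filter through TET2-S97E, where they were high, so nothing is read from the count of 14 against this share. Without the first library of TET2-WT clone 1, 11 of the 14 calls were lost. Those of *Sema3c* and *Lef1* were among them, and were also lost without the first library of TET2-WT clone 2 or of TET2-S97E clone 1, whereas *Pax7*, *Myh7* and *Col10a1* kept theirs with any 1 library left out.

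**Figure D3:**
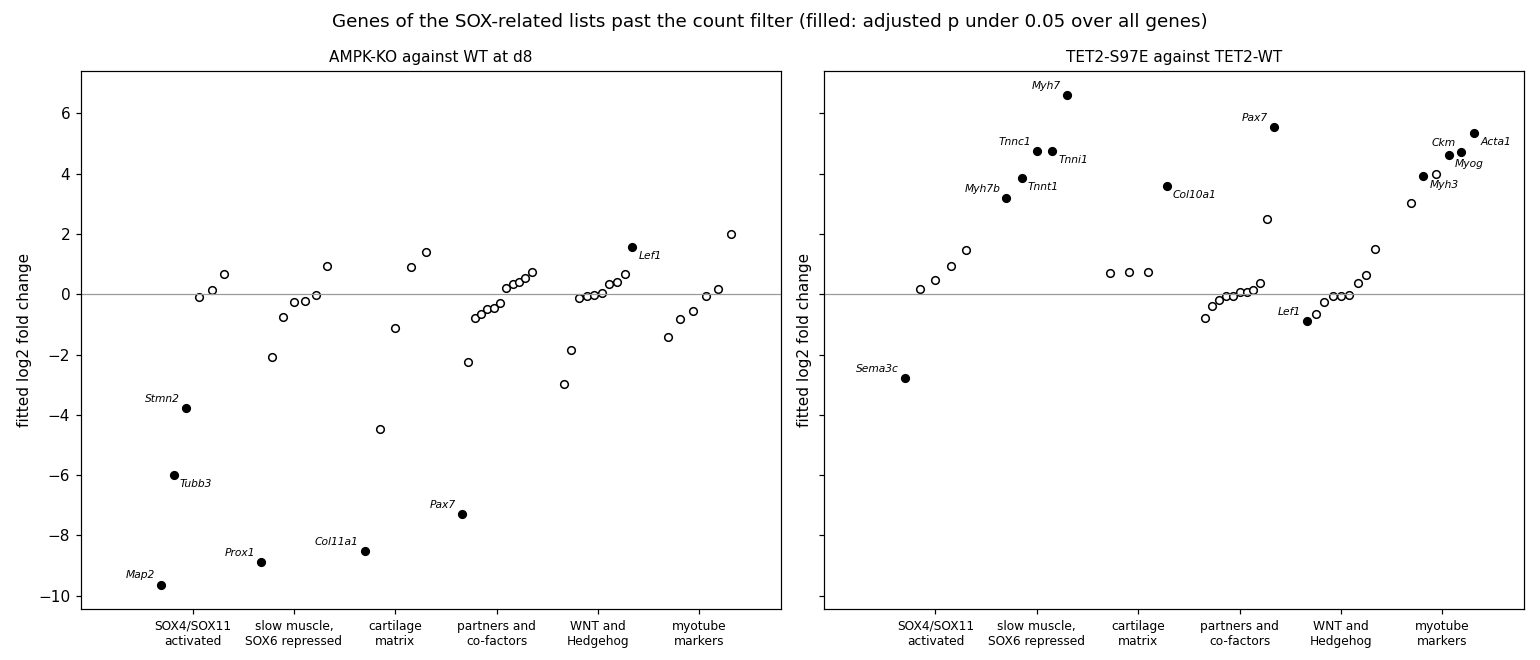
Fitted log2 fold change (y axis) of the genes past the count filter on each SOX-related list and on the myotube marker list, at d8 for AMPK-KO against WT (left) and for TET2-S97E against TET2-WT (right). Filled and named points passed an adjusted p of 0.05 over all genes. *Map2*, *Tubb3* and *Stmn2* lay low on the left. On the right all 5 slow-muscle genes and 4 of 6 myotube markers were called higher, as were 3.71% of all genes. *Myh7* and *Myh7b* passed the filter through TET2-S97E, where they were high, so nothing is read from the count of 5. None of those 5 calls held with the clone as a random effect. The median of the 6 myotube markers there was 4.30. The fitted values of *Map2*, *Pax7*, *Prox1* and *Col11a1* on the left rest on 2 or fewer counts in AMPK-KO.

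Among the 12 other Sox genes, *Sox2*, *Sox13* and *Sox18* reached 10 counts in a library. *Sox13*, the third SoxD gene, had 110 and 144 counts in WT d0, 8 and 38 in AMPK-KO d0, 74 and 84 in WT d8 and 17 and 12 in AMPK-KO d8, and at most 5 in the TET2 libraries. Its d8 log2 fold change of -2.64 ± 0.643 was not called (edgeR adjusted p = 0.0653). *Sox2*, a pluripotency and neural progenitor factor, had 18 and 19 counts in WT d8 and 3 and 0 in AMPK-KO d8 (adjusted p = 0.0610), and *Sox18* had at most 10 counts anywhere. *Sox1*, *Sox3* and *Sox14* were at 0 in all 16 libraries, where 3 counts stand for at most 0.165 CPM.

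Genes with a pattern most like each member were ranked by the Pearson correlation of log2(CPM + 1) over the 16 libraries, centred within each experiment, among 13078 genes. The libraries of a group share genotype and day, and those of a clone share the clone, so the ranking is given as a description. *Itpkb*, an inositol trisphosphate kinase gene, came first for *Sox11* (r = 0.955), before *Ly6c1* (0.934), a surface antigen gene, and *Cpz* (0.929), a carboxypeptidase gene. *Itpkb* stood at 6.27 and 3.14 CPM in WT d0, at 6.16 and 5.25 CPM in WT d8 and at most 0.187 CPM in AMPK-KO on either day. It had at most 1 count in TET2-WT and stood at 0.718 to 2.42 CPM in TET2-S97E. For *Sox12* the first 3 were *Tbc1d9* (0.979), *Slc16a3* (0.972), a lactate transporter gene, and *L1cam* (0.952), a neural cell adhesion gene. *Sox8* was most like *Nfia* (0.955), a nuclear factor on the partner list above, then *Bbs7* and *Bicd2*. *Sox5* was most like *Prkaa1* (0.938), one of the disrupted genes, then *Nacad* and *Cd34*. *Sox4* was most like *Foxj2* (0.900), *Pcdhgc3* and *Cxxc5*, *Sox9* like *Camk2g* (0.925), *Podxl* and *Smurf1*, and *Sox6*, which rests on 12 or fewer counts, like *Epb41l4a* (0.844), *Zfp703* and *Wac*. Between members, r was highest for *Sox5* with *Sox12* (0.8293), *Sox11* with *Sox12* (0.803) and *Sox8* with *Sox11* (0.770), and lowest for *Sox4* with *Sox6* (-0.019). *Sox12* had no count in any TET2 library, so its pattern comes from the WT and AMPK-KO experiment alone. The d0 values of *Sox11* and *Sox12* chose the set and enter these correlations, so nothing is read from the r between them.

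**Figure D4:**
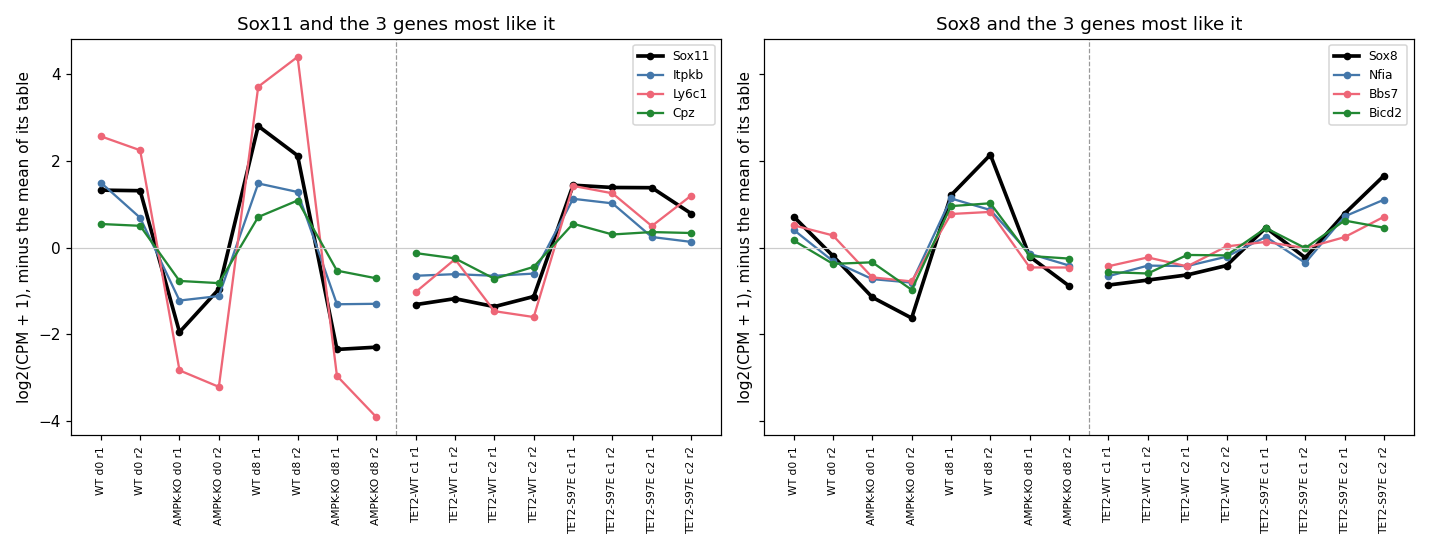
The log2(CPM + 1) minus the mean of its experiment (y axis) in each of the 16 libraries (x axis; r1 and r2 are replicates, c1 and c2 clones) for *Sox11* (left) and *Sox8* (right) in black, each with its 3 most alike genes in colour. *Sox11*, *Itpkb*, *Ly6c1* and *Cpz* were high in all 4 WT libraries, low in AMPK-KO and TET2-WT, and higher again in the 4 TET2-S97E libraries.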

How the data were processed

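RNA-seq read counts per gene, from total RNA depleted of ribosomal RNA, were deposited by the authors as raw counts in 2 tables, 1 for WT and AMPK-KO cells and 1 for the TET2 knock-in clones, with 8 libraries each. Per the labels and the study's methods, the authors demultiplexed reads with bcl2fastq 2.17, trimmed them with Trim Galore 0.4.5, aligned them to GRCm38 with STAR 2.5.3a and counted them with featureCounts 1.5.3. How strand and multiply mapped reads were treated is not given in the sources used here, so antisense reads and reads shared with other genes could enter a count.

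Each table was normalized on its own with TMM factors in edgeR 4.0.16 (R 4.3.3). Genes were filtered with filterByExpr and tested by quasi-likelihood (glmQLFit, glmQLFTest), and p-values were adjusted over all genes tested after Benjamini and Hochberg, with a threshold of 0.05. The WT and AMPK-KO libraries were fitted together as 4 groups, the TET2 libraries by genotype, and clones in a fit of 4 clone groups. TPM used merged exon lengths from GENCODE M21, which held 49326 of the 49585 gene IDs. A floor of 3 counts per library was used for groups without reads. Intervals of ratios are 95% exact intervals, and they and the floors cover counting error only. Groups were taken from the sample labels. Replicates of each group differed by more than sampling noise (chi-square per degree of freedom 29.4 to 107), so every library was kept. Total counts per library are given with the samples, and the common biological coefficient of variation was 0.281 and 0.299 in the 2 main models.

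The members and the gene lists were chosen with earlier results of these data known. Genes named were the members, other Sox genes with 10 or more counts in a library, called genes of each list (up to 5 per comparison), the 3 most abundant genes of each list, from which some are named, and the 3 genes most like each member. Alternatives were DESeq2 1.42.0, its size factors in edgeR, 2 other count filters, the replicate number as a block, single libraries or clones left out, only the libraries of the day, counts summed per clone, limma 3.58.1 (voom) with the clone as a random effect, and other level scales. The edgeR steps were tested on simulated data first.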

Additional observations from a re-analysis of the deposited data

Results flagged for a closer look

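A sample stood far from the rest of its group in 3 of the 12 groups of 4 libraries checked with Dixon's criterion, which flags about 1 in 20 groups by chance. *Sox4* was high in the second library of TET2-WT clone 2, at 153 CPM against 85.6 to 92.5 CPM in the other 3. *Sox9* was low in the first library of TET2-WT clone 2, at 54.9 CPM against 74.5 to 75.9 CPM. *Sox11* was low in the second library of TET2-S97E clone 2, at 4.63 CPM against 7.51 to 7.86 CPM.

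Effects of opposite direction, each without overlap between its groups, were seen for 2 members, and neither difference was tested. The log2 fold change of *Sox4* between AMPK-KO and WT was -0.88 at d0 and 0.34 at d8. That of *Sox11* between d8 and d0 was 1.19 in WT (0.78 to 1.47 with 1 library left out) and -1.06 in AMPK-KO (-1.52 to -0.41).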

How the results depend on the processing

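Counts of called genes depended on the processing, and so did the number of members called, which ran from 1 to 5 at d8 and from 0 to 4 in TET2-S97E over the alternatives. With DESeq2 the counts of genes were 1325 (AMPK-KO against WT at d0), 1569 (d8), 2394 (d8 against d0 in AMPK-KO), 1910 (TET2-S97E against TET2-WT), 1355 (TET2-S97E clones) and 895 (TET2-WT clones), against 505, 766, 1398, 938, 892 and 124 with edgeR. Without the count filter they were 2026 at d0, 2503 at d8, 3293 and 3039 for d8 against d0 in WT (1771 with the filter) and AMPK-KO, and 1680 and 1627 between clones. With at least 10 counts in every library they were 204 at d0 and 277 at d8, and with only the libraries of that day 335 at d0. In TET2-S97E against TET2-WT they were 183 without TET2-WT clone 1, 625 without TET2-WT clone 2, 166 with the clone as a random effect and 0 with counts summed per clone (edgeR, 1575 genes at an unadjusted p under 0.05). With 1 library left out they ranged from 17 to 437 at d0, 107 to 552 at d8, 0 to 2260 for d8 against d0 in WT, 0 to 923 in AMPK-KO, 304 to 1092 for TET2-S97E, 488 to 580 between the TET2-S97E clones and 0 to 140 between the TET2-WT clones. Where edgeR called 0, the genes at an unadjusted p under 0.05 were 2971 and 2749 in WT (without the second d0 or d8 library), 2608 in AMPK-KO (without the first d0 library) and 1071 between the TET2-WT clones (without the second clone 1 library). The cause of these differences was not tested.

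Among members at d8, *Sox5* had a log2 fold change of -5.44 with only the libraries of that day and -7.55 to -4.56 with 1 library left out, and *Sox12* -9.12 to -6.26. *Sox8* passed with DESeq2 (-2.92) and without the filter (-2.91), and *Sox9* without the filter (-0.67). For TET2-S97E, *Sox11* missed the threshold with counts summed per clone (4.04), where 2 clones met 2. *Sox8* missed it without TET2-WT clone 1 (2.82), TET2-WT clone 2 (4.57) or TET2-S97E clone 2 (2.37), with counts summed per clone (3.46) or the clone as a random effect (3.30), and ranged from 2.80 to 4.10 with 1 library left out. *Sox4* passed with DESeq2 (0.69) and ranged from 0.55 to 0.92. *Sox9* changed sign without TET2-S97E clone 2 (0.0233). With at least 10 counts in every library neither *Sox11* nor *Sox8* could be tested in TET2-S97E.

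Changes of sign otherwise concerned values near 0. For d8 against d0 in WT, single libraries left out gave -0.19 to 0.40 for *Sox4*, -1.07 to 0.27 for *Sox5* and -0.46 to 0.25 for *Sox9*, which was 0.00057 with at least 10 counts in every library. In AMPK-KO *Sox9* ranged from -0.32 to 0.14, *Sox4* between the TET2-S97E clones from -0.36 to 0.40 and *Sox11* between the TET2-WT clones from -0.51 to 0.33. Of all alternative values of members, 322 kept direction and side of the threshold (or, untested, moved within their spread), 14 changed sign, 21 lost and 9 gained the call, and 7 untested values moved further.

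Same-numbered replicates share only a number in the labels, and their deviations correlated at 0.129 to 0.392 between groups of the WT and AMPK-KO experiment and at -0.069 to 0.551 between clones. With the replicate block, 740 genes were called at d0, 1144 at d8, 858 in TET2-S97E, 1540 between the TET2-S97E clones and 677 between the TET2-WT clones. The block changed no member's call at d8 or in TET2-S97E, it changed sign for *Sox4* between the TET2-S97E clones (0.00851) and *Sox11* between the TET2-WT clones (-0.00043), and *Acta1*, *Ckm*, *Myh3*, *Myod1* and *Tnni1* missed the threshold in TET2-S97E. Depth limits *Sox12*, *Sox5* and *Sox6* most, since 3 counts stood for 0.0790 to 0.165 CPM.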
